A study of Mus musculus with 13 samples.

Results

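Cholesterol is built from acetyl-CoA through the mevalonate pathway, and 8 genes of this supply were followed in interscapular brown adipose tissue (iBAT), the heat-producing fat depot between the shoulder blades. They are Hmgcs1, Idi1, Fdft1, Sqle, Lss and Cyp51, which encode enzymes, Insig1, which encodes a sterol-responsive anchor in the endoplasmic reticulum, and Srebf2, which encodes the transcription factor SREBP-2. They were chosen by name and matched from Ensembl identifier to mouse symbol, and they are 8 of 42416 identifiers in the counts and 8 of 13360 genes abundant enough to be tested. The set had been put together as synthesis and uptake genes, but none of the 8 encodes an uptake receptor, so receptors such as Scarb1 are described after them as context.

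Bulk RNA sequencing covered 13 libraries. Both genotypes carry loxP sites around Axl, the gene of a receptor tyrosine kinase, were housed at room temperature on a high-fat diet (HFD), and were given tamoxifen at intervals of 3 weeks. The 8 iFAXLKO libraries are from Cre-positive mice and the 5 WT libraries from Cre-negative mice. The Cre, per the methods of the study, is a tamoxifen-dependent CreERT2 driven by an Adipoq transgene on a bacterial artificial chromosome, so recombination is aimed at adipocytes and Axl of other cells in the depot is left in place. The supplement of the study describes the mice as female littermates, and the labels used here give no age, sex or strain. Nothing in the labels says how mice were allotted to libraries, so p-values measure the spread between these libraries.

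When sterols run low in the membranes of the endoplasmic reticulum, SREBP-2 travels with its escort SCAP to the Golgi, is cut there, and its released end switches on the genes of cholesterol synthesis and uptake. INSIG1 holds the SCAP and SREBP pair back when sterols are plentiful, and its own gene is an SREBP target. SREBP-1, from Srebf1, acts mainly on fatty acid synthesis, and part of its targets overlap with those of SREBP-2. Brown fat makes much of its fatty acid itself and takes up lipoprotein remnants as well, so both supplies meet in this tissue.

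Total counts were between 22.44 and 32.6 M per library, and a count of 0 allows up to 0.0883 to 0.13 CPM (a count divided by its library's total in M, as in Mb, after that total is scaled by a TMM factor), a bound of 3 counts that covers counting error only. The defining brown fat gene Ucp1 stood at 5600 ± 1120 CPM (SD, n = 8) in iFAXLKO and 6370 ± 914 CPM (SD, n = 5) in WT, while the 4 hepatocyte markers together reached at most 1.35 CPM. Skeletal muscle markers summed to between 55.4 and 4420 CPM, so muscle RNA varied widely between dissections. Axl, the targeted gene, stood at 33.1 ± 6.16 CPM (SD, n = 8) in iFAXLKO against 27.8 ± 3.82 CPM (SD, n = 5) in WT, a fitted log2 difference of 0.25 with an SE of 0.13 (adjusted p 0.699 in edgeR's quasi-likelihood test), so it was no lower where Cre was labelled positive. A direction given for iFAXLKO below is therefore that of the libraries so labelled. Whole-tissue RNA does not tell Axl of adipocytes from Axl of other cells, nor fewer cells of a type from less RNA per cell.

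Promoter sequences are shown for Hmgcs1, Insig1 and Srebf2, because these members of the set hold the letters of a sterol regulatory element or an E-box, both sequences that SREBP proteins are known to bind. RefSeq on GRCm38.p6 gave a promoter for 6 of the 8 genes, namely Hmgcs1, Idi1, Lss, Cyp51, Insig1 and Srebf2. The bases printed lie before the annotated transcripts, at chr13:119690101-119690350 for Hmgcs1, chr5:28071162-28071362 for Insig1 and chr15:82147019-82147180 for Srebf2, on the plus strand in each case and 5′ to 3′. Capitals mark TCACNCCA, the core of the sterol element, CCAAT on either strand, which reads ATTGG where it lies on the opposite strand, and the E-box CACGTG.
Hmgcs1: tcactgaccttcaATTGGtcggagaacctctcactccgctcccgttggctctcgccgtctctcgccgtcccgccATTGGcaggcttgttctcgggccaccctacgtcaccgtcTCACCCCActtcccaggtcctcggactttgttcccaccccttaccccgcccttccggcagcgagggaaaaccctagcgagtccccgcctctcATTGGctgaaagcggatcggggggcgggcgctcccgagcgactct
Insig1: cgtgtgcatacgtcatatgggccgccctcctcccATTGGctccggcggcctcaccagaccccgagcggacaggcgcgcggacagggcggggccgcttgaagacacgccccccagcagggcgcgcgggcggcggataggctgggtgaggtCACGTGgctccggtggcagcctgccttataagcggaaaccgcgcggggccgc
Srebf2: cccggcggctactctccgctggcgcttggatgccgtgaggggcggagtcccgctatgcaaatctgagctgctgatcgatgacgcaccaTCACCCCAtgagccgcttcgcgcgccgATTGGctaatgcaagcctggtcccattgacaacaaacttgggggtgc

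In the 250 bases before the RefSeq start, searched on both strands, TCACNCCA was found in 2 of the 6 promoters, Hmgcs1 and Srebf2, against 3.67% of 32851 mouse promoters. The CCAAT box, bound by NF-Y, was found in 6 of 6 against 33.8% of all promoters, and the GC box GGGCGG, bound by SP1, in 6 of 6 against 32.7%. CACGTG was found in 1 of 6, Insig1, against 6.02%. In Hmgcs1 the sterol core begins 137 bases before the start and in Srebf2 162 bases before it. A match is a description of letters, and a missing match says only that they are not in this window. The motifs were chosen after these sequences had been seen, so the shares beside them are no test of enrichment.

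The comparison of genotypes asks how Cre-labelled brown fat differs from its controls on HFD, and none of the 8 genes passed its test. In edgeR 0 of 8 had an adjusted p under 0.05, where 0.127% of all genes tested had, and 0 of 8 had an unadjusted p under 0.05, where 7.38% of all genes had. DESeq2 and limma-voom also called 0 of 8, where they called 67 and 23 of all genes tested, with 0 of 8 at an unadjusted p under 0.05 in each. The share of all genes at an unadjusted p under 0.05 was not counted for these tools. Their unadjusted counts, here and for the lists below, thus have no background to be read against. The adjusted p-values lay between 0.798 and 0.996. The libraries of the groups overlapped for 8 of 8 genes, as they did for all but 58 of the 13360 genes tested. The log2 fold changes were negative for 5 and positive for 3. Their median was -0.04, beside -0.01 over all genes tested. What the data do hold is a large spread between libraries of the same genotype, which most of the genes shared.

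**Figure D1:**
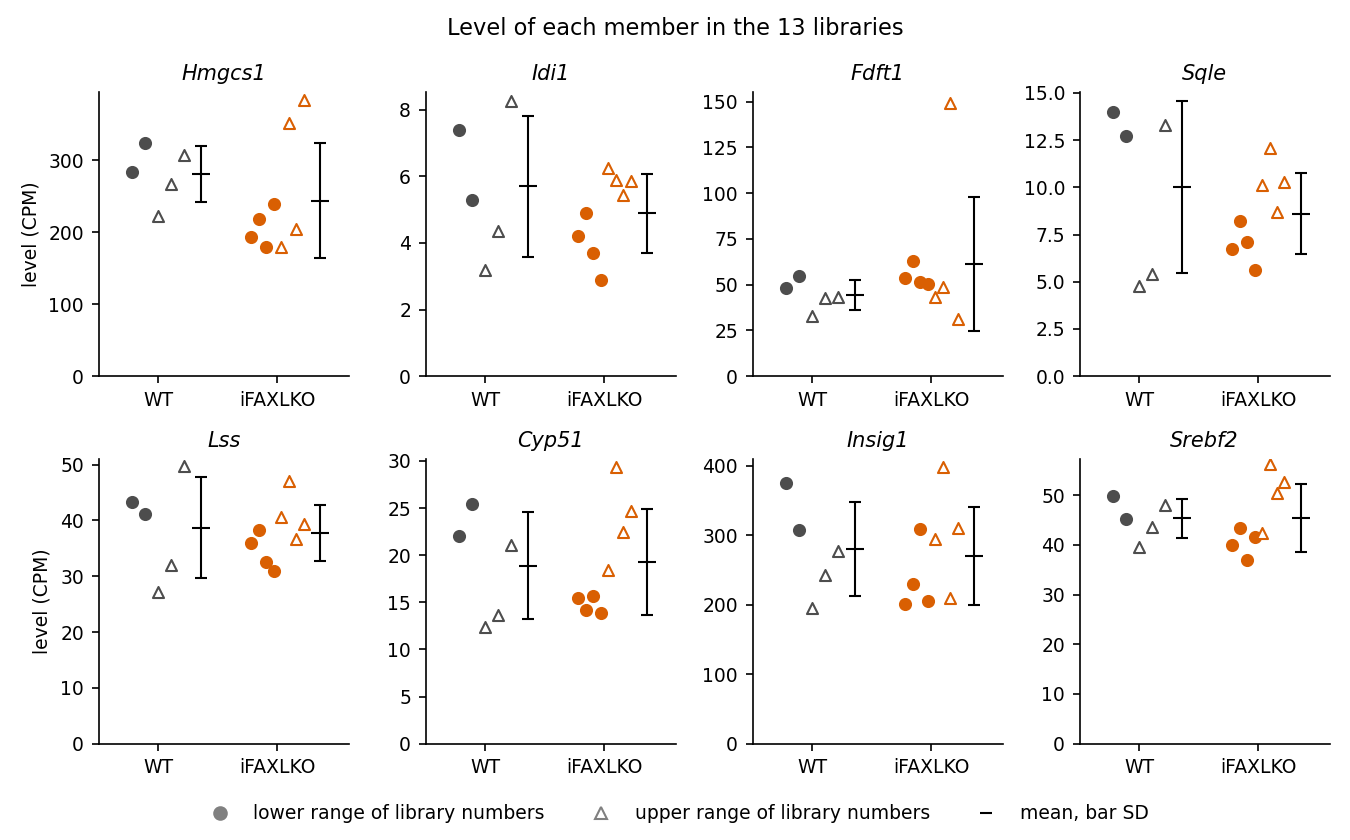
Level of each of the 8 genes in CPM (vertical axes, starting at 0) in the 5 WT (grey) and 8 iFAXLKO (orange) libraries, left to right in replicate order. Filled circles are libraries of the lower and open triangles of the upper range of library numbers, and black marks give the mean with the SD as a bar. The groups overlap in every panel, and the highest Fdft1 value, 149 CPM, stands far above the other 12 libraries.

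Hmgcs1 (ENSMUSG00000093930, chr13:119690379-119708260, plus strand, GRCm38), cytosolic HMG-CoA synthase, acts at an early step of the mevalonate pathway. Its WT levels were 284.2, 323.8, 222.5, 266.8 and 307.9 CPM, and the 8 iFAXLKO libraries ran from 179 through a median of 212 to 384 CPM. Of the iFAXLKO libraries 6 lay below the WT mean of 281 ± 39.3 CPM (SD, n = 5), but replicates 6 and 8 were the highest of all 13, so the groups overlapped. The log2 fold change was -0.20 with an SE of 0.19 and a 95% interval of -0.62 to 0.21 (edgeR adjusted p 0.879), and the exact permutation p, 2-sided over all 1287 arrangements of the group labels, was 0.244.

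Idi1 (ENSMUSG00000058258, chr13:8885501-8892451, plus strand), isopentenyl diphosphate isomerase, turns the first isoprene unit into its reactive form. Per kb of exon it was the least abundant of the 8, with WT levels of 7.40, 5.30, 3.18, 4.35 and 8.26 CPM and iFAXLKO levels from 2.89 through 5.18 to 6.24 CPM. These rest on 86 to 226 counts per library. The highest and the second lowest of all 13 libraries were both WT, and the log2 fold change of -0.22 with an SE of 0.23 (edgeR adjusted p 0.895) was within that spread.

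Fdft1 (ENSMUSG00000021273, chr14:63145150-63179578, minus strand), squalene synthase, commits isoprenoids to sterols. In WT it stood at 48.0, 54.8, 32.6, 42.6 and 43.3 CPM, and in iFAXLKO between 31.1 and 149 CPM with a median of 50.9 CPM. The top value belongs to iFAXLKO replicate 7 alone, and the other 7 libraries of that genotype lay between 31.1 and 63.1 CPM, overlapping the WT libraries. The log2 fold change, 0.47 with an SE of 0.32 (edgeR adjusted p 0.798), was the largest of the set, and without replicate 7 it was 0.14. The last 774 bases of Fdft1 overlap Ctsb, a cathepsin gene on the opposite strand that stood at 1140 to 1700 CPM, and the strand setting of the counting is not given in the sources used here, so reads of the overlap may be shared between these genes. Ctsb was at 1690 CPM in replicate 7, close to its highest value of 1700 CPM. The part of this overlap in the Fdft1 value was not tested.

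Sqle (ENSMUSG00000022351, chr15:59315077-59331192, plus strand), squalene epoxidase, catalyses the first oxygenation of the sterol branch, a slow step of the pathway. WT libraries held 14, 12.7, 4.77, 5.39 and 13.3 CPM, that is 3 high and 2 low libraries of the same genotype. The iFAXLKO libraries, from 5.62 through 8.48 to 12.1 CPM, all lay between these extremes. The log2 fold change was -0.22 with a 95% interval of -0.81 to 0.37 (SE 0.27, edgeR adjusted p 0.915).

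Lss (ENSMUSG00000033105, chr10:76531588-76557138, plus strand), lanosterol synthase, folds the squalene epoxide into the sterol ring system. Its WT libraries stood at 43.3, 41.1, 27.2, 32.0 and 49.8 CPM, and the iFAXLKO libraries from 30.9 through 37.4 to 47.0 CPM. As with Sqle, every iFAXLKO library lay inside the WT range. The log2 fold change was -0.04 with a 95% interval of -0.33 to 0.25 (SE 0.13, edgeR adjusted p 0.981).

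Cyp51 (ENSMUSG00000001467, chr5:4081145-4104746, minus strand), lanosterol demethylase, removes a methyl group from lanosterol. WT levels were 22, 25.4, 12.4, 13.6 and 21.1 CPM, and iFAXLKO levels ran from 13.9 through 17.1 to 29.3 CPM. The log2 fold change was 0.03 with an SE of 0.21 (edgeR adjusted p 0.989), and 3 of 8 iFAXLKO libraries lay above the WT mean. Cyp51 overlaps Akap9, which stood at 27.8 to 50.4 CPM, by 166 bases on the opposite strand. Other annotated genes that overlap members of the set held at most 0.482 CPM on average.

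Insig1 (ENSMUSG00000045294, chr5:28071363-28078662, plus strand) was the most abundant of the set for its length. The WT libraries held 375, 307, 195, 243 and 277 CPM, and the iFAXLKO libraries 201 to 399 CPM with a median of 263 CPM. The group means, 280 ± 67.5 CPM (SD, n = 5) and 270 ± 70.1 CPM (SD, n = 8), differed by less than either SD, with a log2 fold change of -0.05 with an SE of 0.18 (edgeR adjusted p 0.981).

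Srebf2 (ENSMUSG00000022463, chr15:82147181-82205379, plus strand), the regulator, varied least. Its levels were 49.9, 45.2, 39.6, 43.6 and 48.0 CPM in WT and 36.9 to 56.2 CPM, with a median of 42.8 CPM, in iFAXLKO. The log2 fold change was 0.01 with a 95% interval of -0.22 to 0.23 (SE 0.10, edgeR adjusted p 0.996), the narrowest of the 8 intervals. The gene also hosts Mir33, whose own count was 0 in every library, and mRNA counts do not show how much SREBP-2 protein was cut and active.

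**Figure D2:**
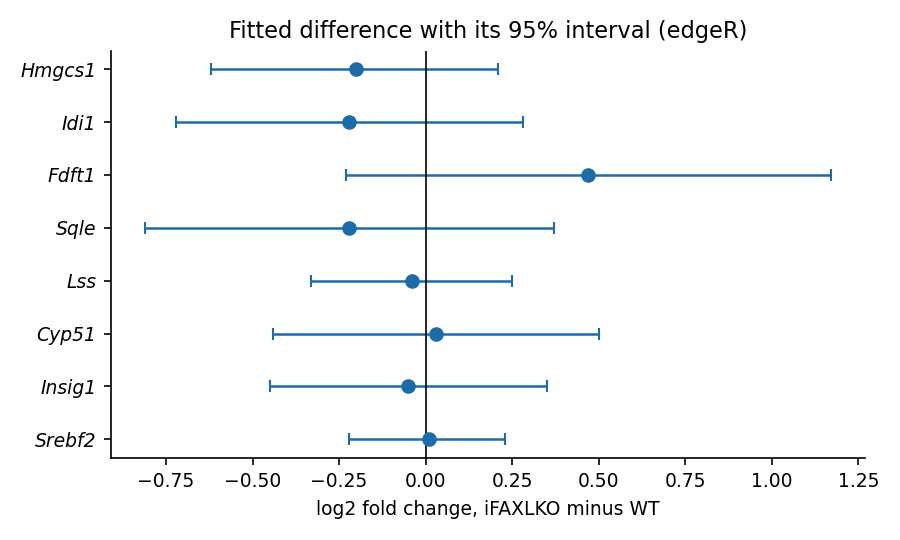
Log2 fold change of each gene, iFAXLKO minus WT, as fitted by edgeR over 13 libraries (points), with its 95% interval (bars). Every interval holds 0, the narrowest is that of Srebf2 (-0.22 to 0.23) and the widest that of Fdft1 (-0.23 to 1.17).

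The intervals differ in width. For Srebf2 and Lss they stay within 0.33 of 0 on the log2 scale, whereas for Sqle the lower end is -0.81 and for Fdft1 the upper end is 1.17.

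Per kb of exon, the order of levels was Insig1, Hmgcs1, Fdft1, Srebf2, Cyp51, Lss, Sqle and Idi1. The length used joins all annotated exons of a gene, 10787 bases for Lss and 4415 for Cyp51, and the order depends on it. In CPM the WT mean of Lss, 38.7, was above that of Cyp51, 18.9. Mean CPM per kb over 13 libraries ran from 88.5 for Insig1, at the 96.6th percentile of the 13349 genes tested that had an exon length, and 56.2 for Hmgcs1 to 1.65 for Sqle and 1.48 for Idi1, at the 25.5th percentile. Insig1 exceeded Hmgcs1 in 13 of 13 libraries, although their ranges over libraries overlapped. Only Hmgcs1 and Fdft1 are neighbours in this order whose ranges did not overlap. Sqle exceeded Idi1 in 11 of 13 libraries, so the lowest places are less sure.

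Spread within the genotypes was larger than for most genes. The SD of log2 CPM about the group means was 0.54 for Sqle and Fdft1, 0.45 for Idi1, 0.42 for Cyp51, 0.36 for Hmgcs1 and Insig1, 0.26 for Lss and 0.19 for Srebf2, against a median of 0.21 over all genes tested. Srebf2, at the 40.8th percentile, was the only one of the 8 below that median. From the lowest to the highest library the level moved 2.95-fold for Sqle, 2.86-fold for Idi1 and 1.52-fold for Srebf2.

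The same libraries were high or low across the set. WT replicate 3 was the lowest WT library for 8 of 8 genes, and iFAXLKO replicate 6 was the highest iFAXLKO library for 5 of 8. WT replicates 1 and 2 and iFAXLKO replicates 6 and 8 each lay above the median of the 13 libraries for 7 of 8 genes, while iFAXLKO replicate 1 lay below it for 7 of 8. High and low libraries thus occurred in both genotypes.

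With the group means of log2 CPM subtracted, the 28 pairs of genes had a median Pearson r of 0.68 over 13 libraries, where the median over all pairs of genes tested was 0.00. Sqle and Lss were the closest pair, at r = 0.94 and Spearman rho 0.95 (permutation p = 1e-05 for r, the smallest that 100000 permutations can give, adjusted p = 0.00014 over 28 pairs). Idi1 followed the same steps, with r = 0.92 to Lss (adjusted permutation p = 0.00014) and 0.90 to Sqle (adjusted permutation p = 0.000187). Srebf2 went most closely with Cyp51, at r = 0.83 and rho 0.78 (permutation p = 0.00055, adjusted p = 0.00308). In all, 16 of 28 pairs passed an adjusted permutation p of 0.05 by Pearson r and 14 by Spearman rho. The points share their library, its depth and its scaling factor, and these relations are between libraries, not evidence that a gene acts on another.

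Fdft1 stood outside this pattern, which was noticed after its values were seen. Its 7 pairs had r between -0.28 and 0.16, with no adjusted permutation p under 0.434. The other 21 pairs had r between 0.39 and 0.94 with a median of 0.70, a value reached or passed by 3.55% of all pairs of genes tested. With the 2 libraries left out that lay farthest from the median of a pair's first gene, these 21 values lay between 0.22 and 0.91 and those of Fdft1 between -0.07 and 0.44, so the ranges then overlapped. Fdft1 rose to 0.44 with Sqle and 0.38 with Lss. Without iFAXLKO replicate 7 alone, its 7 values lay between -0.25 and 0.22 and the other 21 between 0.43 and 0.94. Hmgcs1 and Insig1 were the pair that fell to 0.22, from 0.54.

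**Figure D3:**
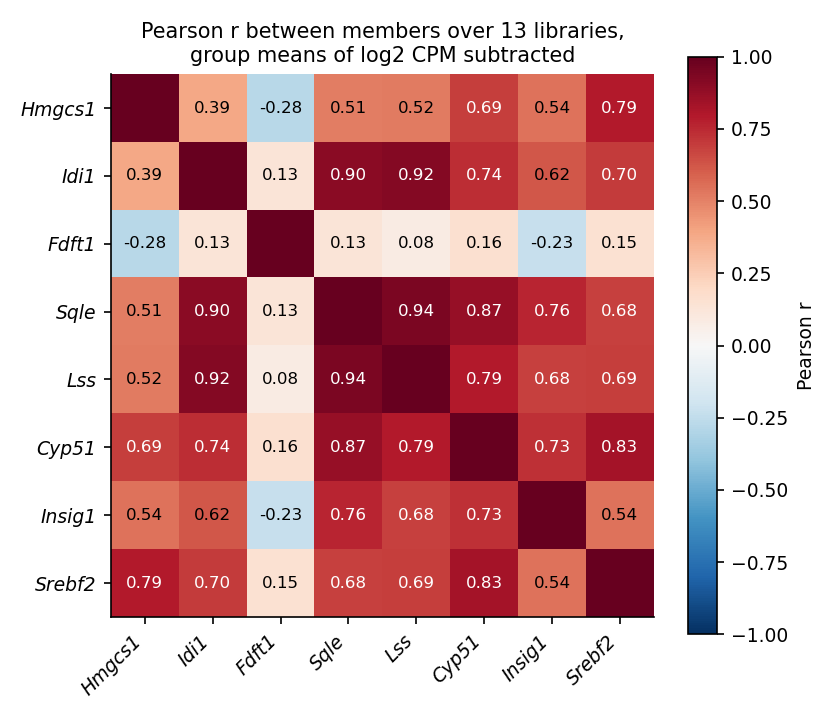
Pearson r between each pair of the 8 genes over 13 libraries, from log2 CPM with the group means subtracted; red is positive and blue negative. The row and column of Fdft1 are pale (-0.28 to 0.16), whereas Sqle, Lss and Idi1 form the darkest block (0.90 to 0.94).

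The relation did not hold alike in the lower and the upper range of the library numbers that the labels give. Of the 21 pairs without Fdft1, 10 had r above 0 in each range. In the 7 libraries of the upper range the lowest of the 21 values was 0.30, whereas in the 6 libraries of the lower range they went down to -0.87, for Cyp51 and Srebf2. In that lower range the median of the 21 values was -0.02 and that of the 7 pairs of Fdft1 0.26, with 0.68 for Lss and 0.63 for Sqle, so Fdft1 did not stand apart there. The block of Idi1, Sqle and Lss was positive in each, with r of 0.85 to 0.92 in the lower range and 0.94 to 0.98 in the upper. With so few libraries per range these are descriptions.

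The 5 genes tested, other than the 8, whose group-centred levels followed the mean of the set most closely over 13 libraries were Eif2ak1, Sntb1 and Scoc, each at r = 0.95, and Ptger3 and Map2k1, each at 0.94. They are the top of 13360 genes and get no p. None of the 5 passed the test between the genotypes, with adjusted p-values from 0.753 to 0.997 in edgeR. Among listed pathway genes, Scd2 reached 0.93, Sc5d 0.91, Scd1 0.88 and Mvd 0.87. At the other end, Mylip, which encodes a ubiquitin ligase, was at -0.82 and the endothelial marker Pecam1 at -0.83.

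The genotype difference of the set changed sign between the ranges of library numbers. The lower range holds 4 iFAXLKO and 2 WT libraries and the upper 4 iFAXLKO and 3 WT libraries. The numbers of the lower range follow each other without a gap. Those of the upper range are broken by gaps, the widest as wide as the gap at the cut between the ranges. The place of the cut was therefore a choice, made with earlier results of these data known, and not a division that the labels give. Sqle read 14 and 12.7 CPM in the 2 WT libraries of the lower range and 5.62 to 8.24 CPM in the 4 iFAXLKO libraries. In the upper range it read 4.77 to 13.3 CPM in WT and 8.72 to 12.1 CPM in iFAXLKO. Cyp51 went the same way, with 22 and 25.4 CPM against 13.9 to 15.7 CPM in the lower range and 12.4 to 21.1 CPM against 18.4 to 29.3 CPM in the upper. Over the set, the difference of mean log2 CPM, iFAXLKO minus WT, was negative for 7 of 8 genes in the lower range, Fdft1 being the exception at 0.09. It was positive for 8 of 8 in the upper, though only 0.01 for Hmgcs1. The upper value of Fdft1, 0.51, includes the 149 CPM of iFAXLKO replicate 7. The change of sign was not particular to the 8 genes. Among fatty acid genes listed as SREBP-1 targets, the lower and upper differences were -0.75 and 0.41 for Fasn, -0.92 and 0.93 for Scd1 and -1.10 and 1.09 for Scd2. Fads1 (0.25 and 0.39) and Fads2 (0.19 and 0.21) kept their sign. Among other cholesterol enzymes Mvd was at -0.80 and 0.52, whereas Lbr was at 0.44 in the lower range. In the lower range both WT libraries lay above all 4 iFAXLKO libraries for 6 of 8 genes, against 9.91% of all genes tested, and for 0 of 8 did the iFAXLKO libraries lie above both, against 9.48%. In the upper range the groups overlapped for 8 of 8 genes, where WT lay wholly above iFAXLKO for 2.5% of all genes and wholly below for 2.79%.

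**Figure D4:**
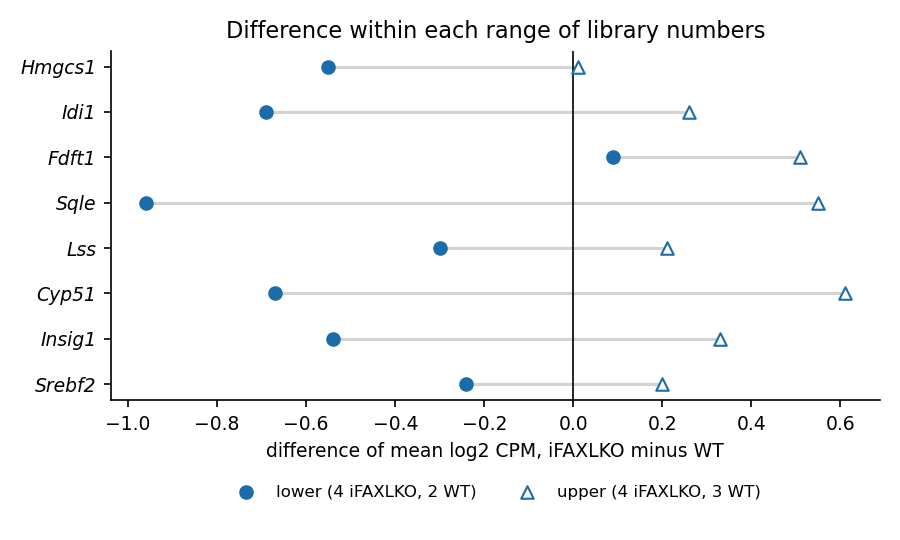
Difference of mean log2 CPM, iFAXLKO minus WT, for each gene within the lower (filled circles) and the upper (open triangles) range of library numbers; grey lines join the values of a gene. For 7 of 8 genes the circle lies below 0 and the triangle above it, with the widest gap for Sqle (-0.96 and 0.55). The triangle of Hmgcs1 is nearly at 0 (0.01).

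The interaction of genotype with library range, upper minus lower on the log2 scale, was 1.27 (SE 0.27) for Cyp51, 1.36 (SE 0.43) for Sqle, 0.87 (SE 0.31) for Insig1 and 0.44 (SE 0.16) for Srebf2. In edgeR their unadjusted p-values were 0.00037, 0.00705, 0.0144 and 0.0176 and their adjusted p-values 0.623, 0.638, 0.644 and 0.65. It was positive for 8 of 8 genes, where 55.6% of all genes were positive. Those 4 of 8 had an unadjusted p under 0.05, where 7.13% of all genes had in either direction and 2.87% had with a positive sign. None passed adjustment over all genes, with 0 of 8 called where 0.0% of all genes were called and the lowest adjusted p of any gene was 0.623. As the genes move together from library to library, 8 signs are not 8 separate observations, and the labels do not say what a library number stands for. The 8 genes and the ranges were chosen with earlier results of these data known, so these p-values and shares are descriptions and no test.

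Calls of the interaction depended on single WT libraries. Without WT replicate 1, which leaves WT replicate 2 as the only WT library of the lower range, assumed to vary like the others, Cyp51 had an adjusted p of 0.0264 with an interaction of 1.37, but 9.62% of all genes were then called, and only 2 of the 8 genes had an unadjusted p under 0.05. Without WT replicate 5, Sqle had an adjusted p of 0.0289 with an interaction of 1.98, and it was the only gene called, 0.0075% of those tested. In that fit Cyp51, Lss, Idi1, Insig1 and Srebf2 also had an unadjusted edgeR p under 0.05, while Hmgcs1 (0.0762) and Fdft1 (0.327) did not. Without iFAXLKO replicate 7 the interaction of Fdft1 was -0.04 in place of 0.69. In the lower range fibroblast markers summed to 410 and 419 CPM in WT and 594 to 1120 CPM in iFAXLKO, and muscle markers to 2420 and 3020 CPM in WT and 173 to 2880 CPM in iFAXLKO. With a fibroblast score as a covariate 4 of 8 genes had an unadjusted p under 0.05 for the interaction. With a muscle score 6 of 8 had, Idi1 at 0.0434 and Hmgcs1 at 0.0182 beside the 4 named above (edgeR). Without that score Idi1 and Hmgcs1 had been at 0.0552 and 0.104. With either score 0 genes were called. The share of all genes at an unadjusted p under 0.05 was not counted in the altered fits. The counts of the 8 genes there thus have no background to be read against. The 5 endothelial markers, whose r with the mean of the set had a median of -0.64, also differed between the ranges. Their lower and upper differences of mean log2 CPM were 0.50 and -0.16 for Pecam1, 0.59 and -0.07 for Cdh5 and 0.67 and -0.09 for Tek. They were 0.19 and -0.34 for Kdr and 0.38 and 0.03 for Emcn. The part of composition in the interaction was not tested further.

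The rest of the synthesis pathway gave the same picture in the comparison of genotypes. Of 15 other enzymes 0 were called by edgeR, DESeq2 or limma-voom, and the numbers at an unadjusted p under 0.05 were 0, 0 and 2. Their median log2 fold change was -0.02, with a range of -0.17 to 0.18. Fdps, farnesyl diphosphate synthase, had a log2 fold change of -0.16 (edgeR adjusted p = 0.932), and Mvd, which forms isopentenyl diphosphate, -0.09 (adjusted p = 0.975). Among the late enzymes, Msmo1 was at 0.14 (adjusted p = 0.909) and Dhcr7 at -0.02 (adjusted p = 0.99). The median r of the 15 with the mean of the 8 genes was 0.57, from -0.72 for Lbr to 0.91 for Sc5d.

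Among 12 genes of sterol sensing and SREBP processing, 0 were called and 0 had an unadjusted p under 0.05 in edgeR, DESeq2 or limma-voom. For Scap the iFAXLKO level was 55.4 ± 3.05 CPM (SD, n = 8), the WT level 56.6 ± 4.01 CPM (SD, n = 5) and the log2 fold change -0.03 (SE 0.06). Insig2 was at -0.12 (edgeR adjusted p = 0.752), and no iFAXLKO library lay above its WT mean. Srebf1 was at 0.27 with an SE of 0.28 (edgeR adjusted p 0.895), with iFAXLKO at 222 ± 95.4 CPM (SD, n = 8) and WT at 185 ± 36.4 CPM (SD, n = 5).

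For uptake and transport within the cell, 16 of 18 genes were tested and 0 were called by any of the 3 tools, with 2 at an unadjusted p under 0.05 in each. Scarb1, the HDL receptor, was 0.28 higher on the log2 scale with an unadjusted p of 0.0319 (adjusted p = 0.625 by edgeR), and 7 of 8 iFAXLKO libraries lay above its WT mean. Lipa, the acid lipase of lysosomes, was the other gene of the list at an unadjusted p under 0.05, at -0.23 with an unadjusted p of 0.0465 (adjusted p = 0.659 by edgeR), and 1 of 8 iFAXLKO libraries lay above its WT mean. Vldlr at -0.09, Lrp1 at -0.07, Npc1 at 0.06 and Stard4 at 0.21 had adjusted p-values of 0.905, 0.947, 0.931 and 0.707. Lrp8 was below the limit on low counts.

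On the way out of the cell, 7 of 9 genes of efflux and LXR signalling were tested and 0 were called or had an unadjusted p under 0.05 by the 3 tools. The sterol exporters Abca1 and Abcg1 had log2 fold changes of 0.14 (SE 0.17) and -0.09 (SE 0.25), and Apoe 0.25 with an SE of 0.22 (edgeR adjusted p 0.872). For esterification and oxysterols, 5 of 8 genes were tested and likewise 0 were called or had an unadjusted p under 0.05. Soat1, the acyltransferase that stores cholesterol as ester, was at 0.23 with an SE of 0.18 (edgeR adjusted p 0.84). In the branch from the mevalonate pathway to dolichol, ubiquinone and prenylated proteins, 8 of 8 genes were tested and 0 called, with 1, 1 and 2 at an unadjusted p under 0.05 in edgeR, DESeq2 and limma-voom.

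Some of the fatty acid genes listed as SREBP-1 targets spread widely between libraries, though Fads2 stayed within 8.97 to 12.2 CPM. Of 10 tested, 0 were called by the 3 tools and 2 had an unadjusted p under 0.05 in each. Acly reached 3060 CPM in the highest of the 13 libraries, Fasn ran from 3450 to 18800 CPM and Scd1 from 2460 to 15300 CPM. Their log2 fold changes were -0.47 (SE 0.52), -0.28 (SE 0.37) and -0.01 (SE 0.43). Those with an unadjusted edgeR p under the limit were the desaturases Fads1, at 0.33 with an unadjusted p of 0.00257 (adjusted p = 0.388), and Fads2, at 0.20 with an unadjusted p of 0.0165 (adjusted p = 0.55). For each of them 8 of 8 iFAXLKO libraries lay above the WT mean. The median r of these 10 genes with the mean of the 8 sterol genes was 0.70, above the 0.57 of the other sterol enzymes, a difference that was not tested.

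**Figure D5:**
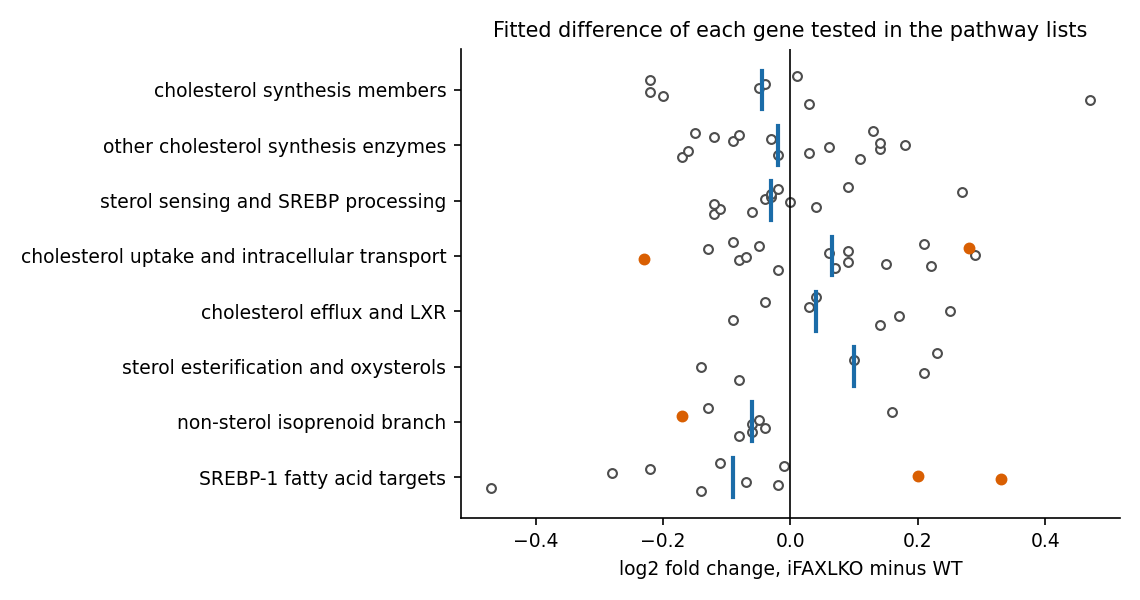
Log2 fold change, iFAXLKO minus WT, of each gene tested in 8 pathway lists (points) with the median of the list (blue line); filled orange points have an unadjusted edgeR p under 0.05. No point has an adjusted p under 0.05, and the list medians lie between -0.09 and 0.10.

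Marker lists of the cells in the depot were read in the same libraries. Fibroblast markers had 8 of 8 genes higher in iFAXLKO at an unadjusted edgeR p under 0.05, with a median log2 fold change of 0.69. Macrophage markers had 5 of 6, with a median of 0.41. Of all 13360 genes tested, 513 were higher at such a p. After adjustment edgeR called 0 of each list, limma-voom 0 of each, and DESeq2 2 fibroblast markers, Dcn and Lum, and no macrophage marker. Fibroblast markers summed to 490 to 1120 CPM in iFAXLKO and 355 to 653 CPM in WT. Macrophage markers summed to 91.7 to 176 CPM in iFAXLKO and 74.6 to 112 CPM in WT. Brown adipocyte markers had a median of -0.08 with 10 of 11 negative. Elovl3, a fatty acid elongase, was at -0.69 (unadjusted p = 0.00572, adjusted p = 0.474 by edgeR), with 0 of 8 iFAXLKO libraries above its WT mean. Adipoq, the positive one, was the only gene of the 11 called, at 1120 ± 132 CPM (SD, n = 8) where 708 ± 92.7 CPM (SD, n = 5) was the WT level, which edgeR fitted as 0.66 on the log2 scale (adjusted p 0.0118). Muscle, white adipocyte, endothelial and Schwann cell markers had medians of -0.23, 0.20, 0.21 and 0.07 with 0 called, and of 6 lymphocyte and 4 hepatocyte markers 1 and 0 were abundant enough to be tested. Adipoq is the gene that drives the Cre transgene, and the part of that transgene in its counts was not tested here. With a fibroblast score as a covariate the log2 fold change of 6 of the 8 sterol genes turned sign, and none was called. The part of tissue composition in the spread of the sterol genes was not tested.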

How the data were processed

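Tissue RNA of 13 libraries, 8 iFAXLKO and 5 WT, had been sequenced, and the authors deposited raw counts, 1 whole number per Ensembl identifier. The methods of the study name Trim Galore, hisat2, GRCm38 and Ensembl annotation with depletion of ribosomal RNA, whereas the submitters' processing notes name bcl2fastq 2.20, fastp 0.20.0, STAR 2.7.4a, DESeq2 and GRCm38.p6, and the labels polyadenylated RNA; the program used for counting, and whether it used strand, are not given in the sources used here. No columns of other series were present (0).

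Symbols matched 42263 of 42416 identifiers, and GENCODE M21 (GRCm38) gave positions, counted from 1. A gene was tested if at least 5 libraries held over 1 CPM of it, which 13360 did. CPM were scaled by TMM factors, and a prior count of 2 was added for log2 CPM. Groups were compared with edgeR 4.0.16 (quasi-likelihood F test, robust, 2-sided, Benjamini-Hochberg over all genes tested, limit 0.05) in R 4.3.3, the SE being the log2 fold change divided by the square root of F. The steps were tested on simulated data. Single genes were compared by an exact permutation test over all 1287 splits, with 0.000777 as the smallest p possible. Correlations used 100000 permutations. Library pairs of a group differed by a chi-square of at least 16.56 per degree of freedom, so each library is 1 replicate.

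The 8 genes, the context and marker lists, and the ranges of library numbers were chosen with earlier results of these data known, the motifs after the sequences had been seen, and the fits within library ranges and the alternatives of the interaction after seeing the data. Named genes are the 8, Axl, a fixed choice from each pathway list whatever its value, any list gene called, and the 5 genes most like the set. Sc5d, Scd2, Mylip, Lbr, Pecam1, Cdh5, Tek, Kdr, Emcn, Lrp8, Ctsb, Akap9, Mir33, Ucp1, Elovl3, Lipa, Fads1, Fads2, Dcn and Lum were named beyond this rule. Some genes of that choice are not reported here, though the counts over their lists include them. Alternatives were DESeq2 1.42.0, limma-voom (limma 3.58.1) with sample weights, upper quartile and RLE factors, totals that leave out mitochondrial genes and the 10 most abundant ones, other filters, non-robust dispersions, a replicate block, library range and marker scores as covariates, and leaving out each library. Promoters are from RefSeq (GRCm38.p6).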

Additional observations from a re-analysis of the deposited data

Results flagged for a closer look

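Within 54 groups of libraries looked at for a single value far from the others, 3 held one. The limit used flags about 1 in 20 groups of independent, normally spread values. These genes share their libraries, so the number flagged is not weighed against chance. Fdft1 was at 149 CPM in iFAXLKO replicate 7, where the other 7 iFAXLKO libraries lay between 31.1 and 63.1 CPM. Mvd was at 10.6 CPM in iFAXLKO replicate 6, against 4.28 to 6.57 CPM in the others. In the same library Msmo1 was at 19.1 CPM, against 8.97 to 13 CPM.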

How the results depend on the processing

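None of the 8 genes was called in any of 13 alternative fits, of 13 fits that left out a library or of the fits within a library range, where the lowest adjusted p-values were 0.23, 0.567 and 0.399. The number of genes called, 17, was 67 with DESeq2, 7 with the replicate block, 7 with a fibroblast score as a covariate, 4 within the lower and 10 within the upper library range (fewer libraries), and 14 to 19 without a library. Replicate numbers did not pair the samples: same-numbered libraries correlated at 0.392, 0.422, 0.188, 0.181 and -0.614, 2 of 5 matched their own number best, and with the block 0 of 8 genes were called, with Hmgcs1 (-0.47) and Fdft1 (0.25) at unadjusted p-values of 0.00172 and 0.0349 (edgeR adjusted p 0.23 and 0.394). The median log2 fold change of the 8, -0.04, was -0.54 and 0.28 within the lower and upper range, -0.13 to 0.02 without a library, -0.20 with the replicate block and 0.16 with the fibroblast score. The interaction of genotype and library range called 0 genes with all libraries and 0 to 1282 without a library, with 2 to 6 of the 8 at an unadjusted p under 0.05. No log2 fold change below was called, so a sign that turned is no reversal of a call, and the cause was not tested. Log2 fold changes that turned sign were, within the lower range, Cyp51 -0.67, Srebf2 -0.24, Msmo1 -0.27, Srebf1 -0.07, Vldlr 0.02, Lrp1 0.10, Abcg1 0.24, and within the upper range, Hmgcs1 0.07, Idi1 0.16, Sqle 0.41, Lss 0.17, Insig1 0.35, Fdps 0.15, Mvd 0.53, Dhcr7 0.02, Fasn 0.08, Scd1 0.75. With the fibroblast score they were Hmgcs1 0.11, Idi1 0.10, Fdft1 -0.39, Sqle 0.28, Lss 0.21, Insig1 0.32, Fdps 0.21, Mvd 0.32, Dhcr7 0.10, Insig2 0.08, Vldlr 0.13, Scarb1 -0.02, Soat1 -0.06, Fasn 0.06, Scd1 0.23, Acly 0.17, and with the brown adipocyte score Srebf2 -0.03, Fdps 0.07, Mvd 0.02. With the muscle score Srebf2 -0.01 turned. Under limma-voom Sqle 0.12, Lss 0.06, Insig1 0.01, Srebf2 -0.01, Fdps 0.17, Mvd 0.14, Dhcr7 0.10, Abca1 -0.04, Fasn 0.15, Scd1 0.28, Acly 0.29 turned, with upper quartile factors Dhcr7 0.01, Scd1 0.02, and with the replicate block Cyp51 -0.23, Srebf2 -0.15, Fdps 0.04, Msmo1 -0.07, Srebf1 -0.19. Over the fits without a library, those whose sign turned ran over Lss -0.13 to 0.07, Cyp51 -0.08 to 0.16, Insig1 -0.15 to 0.08, Srebf2 -0.04 to 0.04, Fdps -0.30 to 0.07, Mvd -0.25 to 0.13, Dhcr7 -0.08 to 0.05, Scap -0.07 to 0.01, Lrp1 -0.19 to 0.02, Npc1 -0.01 to 0.13, Abca1 -0.01 to 0.22, Abcg1 -0.23 to 0.09, Fasn -0.49 to 0.01, Scd1 -0.22 to 0.29. Of 246 values of other pathway genes under the alternatives 24 turned sign. Depth limits Idi1 most, at 86 counts in its shallowest library.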
